A study of Mus musculus with 21 samples.

Results

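The 10 genes described here belong to the integrated stress response governed by the transcription factor ATF4, and they were followed through mouse epiblast development and through formative and primed pluripotent stem cell culture. They are Atf4 itself, its partner and target Ddit3 (CHOP), the pseudokinase Trib3, the glutathione-degrading enzyme Chac1, the mTORC1 inhibitor Ddit4, the amino acid synthesis enzymes Asns, Psat1 and Phgdh, and the amino acid transporters Slc7a11 and Slc7a5. Members were taken by gene symbol, and all 10 were found among the 33861 genes of the count table. The set was chosen by the counts of Chac1 at E6.0 against the earlier stages, so the E6.0 levels are given as a description, with no test.

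The series holds 21 bulk RNA-seq libraries in 7 groups of 3. FS1 and FS2 are separate lines of formative stem cells grown in a medium named A3XR and sampled at passages 10, 11 and 18, and 12, 13 and 16, respectively. AF and AFX are epiblast stem cells (EpiSCs, a primed state) that carry the name E14, grown in media named AF and AFX and each sampled at passages 14, 15 and 16. The uncultured groups are epiblasts of mouse embryos, 1 embryo a library, named by embryonic day as E5.0, E5.5 or E6.0. The libraries titled E6.0 are given as E6.5 in another label field, and the title is used here. Each cultured library came from 1000 cells. As far as the labels say, the 3 replicates of a cultured group are passages of 1 line and not separate derivations. A p-value among them thus measures the spread between passages. Where FS1 and FS2 are pooled, the spread also holds the difference between these lines. No strain, genotype or treatment beyond the media is named.

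ATF4 is translated preferentially when the initiation factor eIF2 is phosphorylated by kinases that sense amino acid shortage, endoplasmic reticulum stress, double-stranded RNA or haem shortage. It binds C/EBP-ATF response elements as a dimer with C/EBP factors and raises genes for amino acid uptake and synthesis and for tRNA charging. Under prolonged activity it also raises Ddit3, Trib3 and Chac1. Because ATF4 protein is set largely by translation, its mRNA reports its activity only in part.

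Promoter sequences are shown for the 4 members in which the core of this element was found, as a trait read outside the count data. The motif TGATGNAA was searched on both strands (its reverse complement is TTNCATCA) in the 300 bases from 250 before to 50 after each RefSeq transcription start on GRCm38.p6. Of the 10 members, 9 had a promoter entry and 4 held at least 1 match, whereas 4.51% of all 27025 genes and 3.97% of all 32851 windows did. Matches are in capitals and the rest in lower case, 5′ to 3′ on the strand of the gene.
Chac1, chr2:119350992-119351241, plus strand: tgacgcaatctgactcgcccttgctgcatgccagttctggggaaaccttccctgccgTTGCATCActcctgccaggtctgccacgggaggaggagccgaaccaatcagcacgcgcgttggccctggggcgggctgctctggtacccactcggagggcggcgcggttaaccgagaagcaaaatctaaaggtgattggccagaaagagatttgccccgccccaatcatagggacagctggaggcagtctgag
Asns, chr6:7693210-7693309, minus strand: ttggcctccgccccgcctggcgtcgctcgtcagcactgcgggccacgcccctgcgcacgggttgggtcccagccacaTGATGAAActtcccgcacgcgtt
Slc7a11, chr3:50443614-50443713, minus strand: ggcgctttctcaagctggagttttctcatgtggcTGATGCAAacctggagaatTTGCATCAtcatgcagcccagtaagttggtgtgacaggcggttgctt
Trib3, chr2:152344027-152344056, minus strand: tagctcaggtTTACATCAgccgggcgggga
In Chac1 the match lies between bases -193 and -186 from the start and reads on the opposite strand. In Asns it lies from -23 to -16, in the stretch next to the start. Slc7a11 holds 1 match on each strand, from -66 to -59 and from -47 to -40, and 0.07% of all windows hold 2 or more. The Trib3 match falls after the RefSeq start, at bases 15 to 22 of the transcript. The GENCODE gene positions given below have other starts for 2 of these genes, 152344032 for Trib3 and 7693254 for Asns. By those starts the Trib3 match lies before the gene and the Asns match within it. No match was found in the windows of Atf4, Ddit3, Ddit4, Psat1 or Phgdh, which says only that these letters are not in those windows.

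Library totals ran from 5827093 to 15916800 counts. Levels below are CPM, read counts set to a common library size with TMM factors over all 21 libraries. All 6 epiblast markers were detected in every library. Markers of visceral endoderm, the layer that surrounds the epiblast, summed to 592, 821 and 293 CPM in E5.0 embryos 1, 2 and 4, to between 44.3 and 76.3 CPM at E5.5, and to between 29.9 and 33.0 CPM at E6.0. E5.0 embryo 2 also held 64.3 CPM of extraembryonic ectoderm markers, with all 8 of them detected, against 14.8 and 7.45 CPM in the other E5.0 embryos. AF cultures held 221 to 261 CPM of fibroblast markers and 62.5 to 97.1 CPM of visceral endoderm markers, and the other cultures 15.7 to 55.9 and 7.95 to 27.5 CPM. Most of the AF endoderm sum came from Sox17 (31.4 CPM on average), Gata6 (18.2), Dab2 (16.6) and Gata4 (10.2). The other markers of that list stood at 2.13 CPM or less in AF. Most of the AF fibroblast sum came from Col1a1 (93.5), Col3a1 (79.1) and Col1a2 (58.0). Thy1 and Twist1 were lower in AF (2.17 and 2.12 CPM) than in AFX (10.7 and 3.09 CPM). Fewer cells of a type and less RNA per cell cannot be told apart in such bulk libraries. The part of these markers in the results below was not tested, and they are given again where they move with one. Ddit3 needs a separate caution: its exons overlap Mars and Gm4189 on the opposite strand, and whether counting used strand is not given in the sources used here, so its counts may include reads of those genes. Phgdh has a processed pseudogene, Phgdh-ps1, which could share reads with it.

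**Figure D1:**
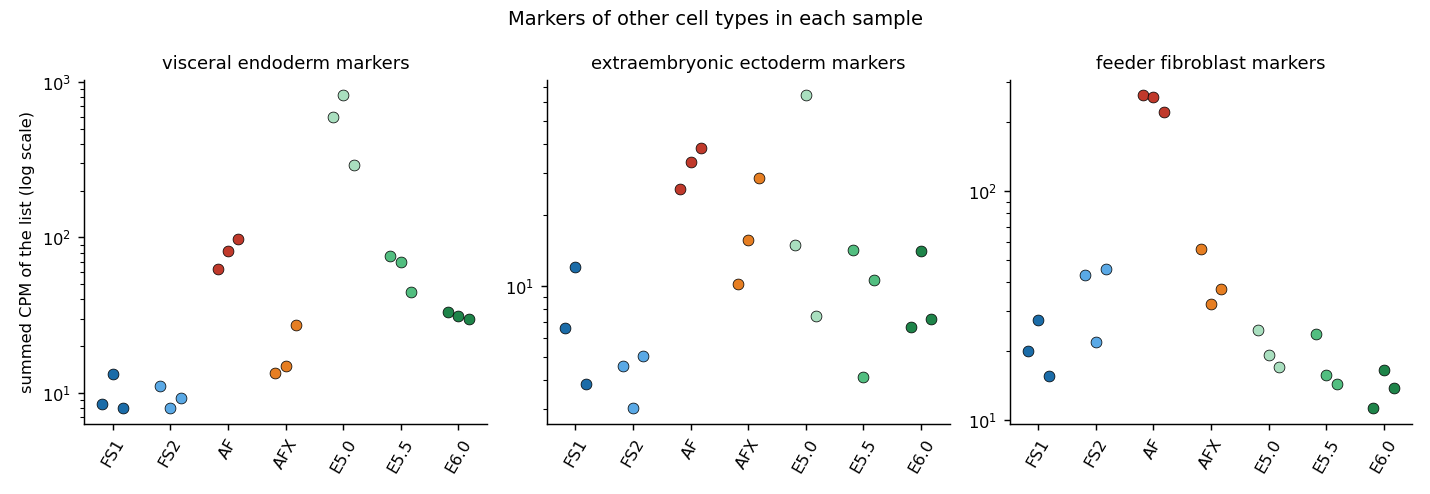
Summed CPM (log scale) of the marker lists for visceral endoderm, extraembryonic ectoderm and feeder fibroblasts in each of the 21 samples, 1 point per sample and 3 per group. The E5.0 embryos stand highest for visceral endoderm markers (293 to 821 CPM), and the AF cultures for fibroblast markers (221 to 261 CPM).

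The members covered a wide range of levels. Per kilobase of exon, mean Atf4 at E6.0 was 117 CPM per kb, the highest among the 10 genes there, followed by Phgdh at 52.5, Slc7a5 at 49.6, Psat1 at 35.4 and Asns at 23.7 CPM per kb. Chac1 stood at 19.0, Trib3 at 7.49, Ddit3 at 4.64, Ddit4 at 3.08 and Slc7a11 at 0.398 CPM per kb. At E5.0 the same scale gave 48.9 CPM per kb for Atf4 and 0.138 for Chac1. E5.0 epiblasts were low for most of the genes. Every cultured sample lay above every E5.0 epiblast for Chac1, whose E5.0 level helped choose the set, and for 7 of the other 9 genes, as for 16.3% of all 16614 genes. Ddit3 and Slc7a11 were the exceptions.

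**Figure D2:**
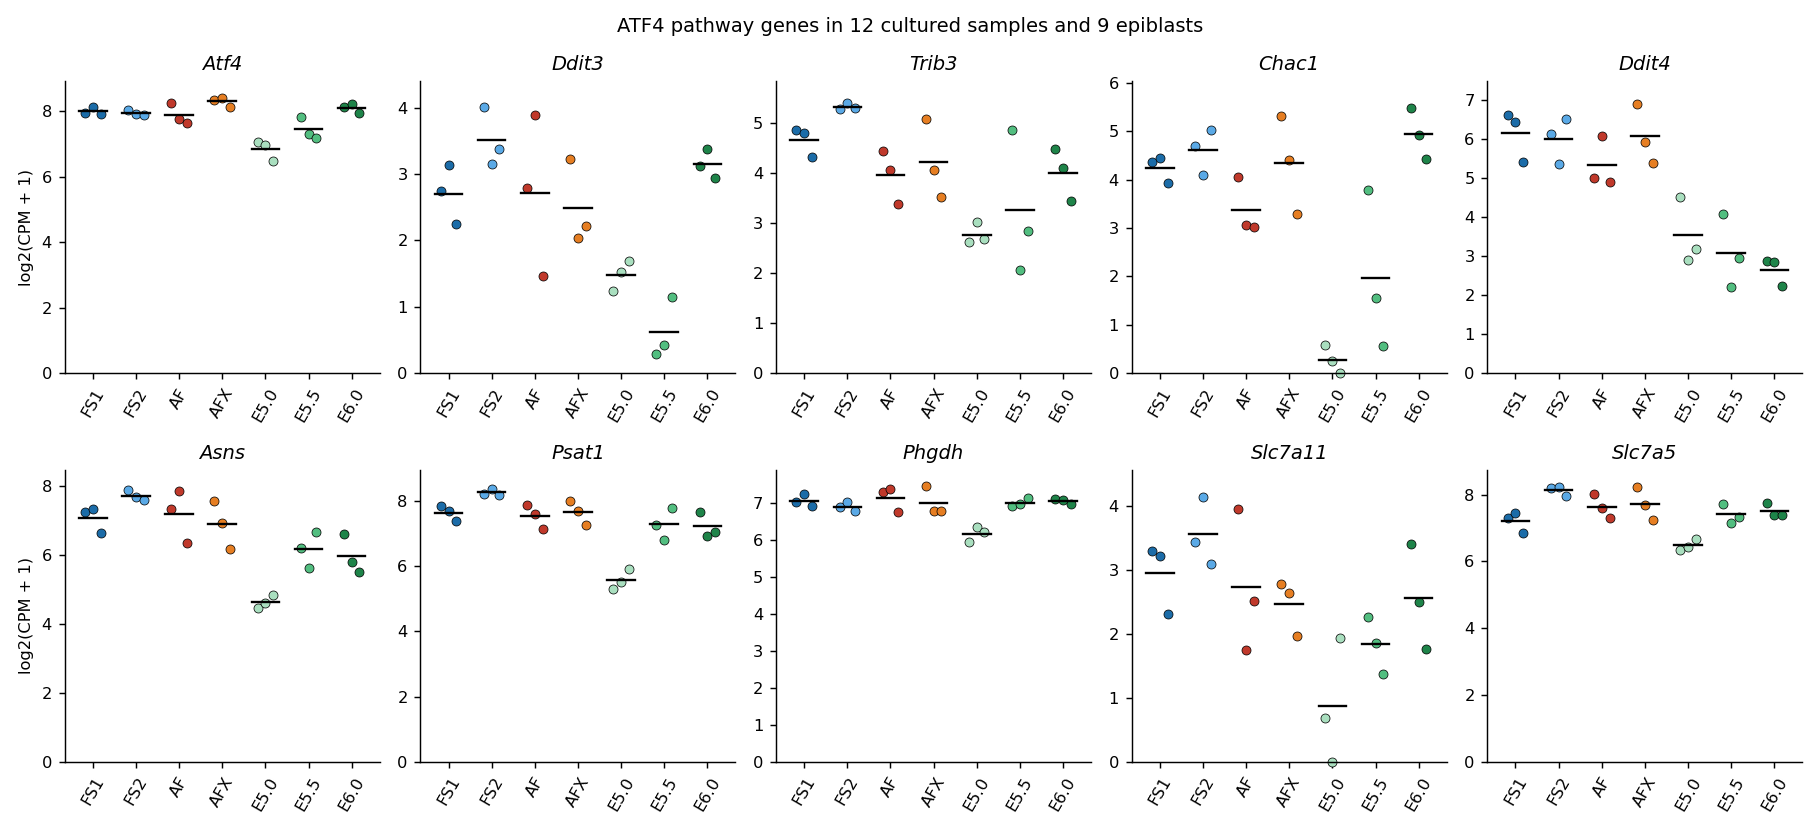
Level of each of the 10 genes as log2(CPM + 1), 1 panel per gene, with 1 point per sample and a line at the mean of the 3 samples of each group. Most genes are lowest at E5.0, Chac1 reaches 20.5 to 43.5 CPM at E6.0, and Ddit4 is low in all 9 epiblasts.

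Atf4 (chr15:80255184-80257541, plus strand) was abundant in every sample. In the epiblast it stood at 132, 126 and 88.9 CPM at E5.0, at 228, 159 and 146 CPM at E5.5, and at 283, 296 and 249 CPM at E6.0. The 3 stages did not overlap. In culture it ranged from 239 to 283 CPM in FS1, from 237 to 263 in FS2, from 201 to 304 in AF and from 282 to 339 in AFX, so that E6.0 epiblasts lay within the span of the cultures. In the order of group means (AFX, E6.0, FS1, FS2, AF, E5.5, E5.0), E5.5 and E5.0 were the only neighbours whose ranges did not overlap.

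Ddit3 (chr10:127290774-127296288, plus strand), a C/EBP-family factor that dimerises with ATF4 and promotes cell death under lasting stress, was scarce in the early epiblast. It stood at 1.35, 1.87 and 2.25 CPM at E5.0, at 0.224, 0.343 and 1.22 CPM at E5.5 (2, 3 and 13 counts), and at 7.75, 9.39 and 6.71 CPM at E6.0. E5.5 was thus below E5.0, and both were below E6.0, with no overlap. Cultured samples ran from 1.78 to 15.1 CPM. These end points are AF passage 16 and FS2 passage 12.

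Trib3 (chr2:152337422-152344032, minus strand) encodes a pseudokinase that restrains AKT and feeds back on ATF4. It stood at 5.15, 7.10 and 5.44 CPM at E5.0, at 28.2, 3.20 and 6.19 CPM at E5.5, and at 21.5, 16.3 and 9.85 CPM at E6.0. E5.5 embryo 1 stood apart from the other E5.5 embryos. In culture Trib3 was 28.3, 26.9 and 19.2 CPM in FS1, 38.2, 41.4 and 38.5 CPM in FS2, 20.9, 15.8 and 9.44 CPM in AF, and 33.0, 15.7 and 10.6 CPM in AFX, in order of passage. FS2 lay above every other sample of the series.

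Chac1 (chr2:119351229-119354381, plus strand), a γ-glutamylcyclotransferase that breaks down glutathione, had the widest span. It stood at 0.491, 0.187 and 0 CPM at E5.0 (4, 1 and 0 counts), at 12.9, 1.95 and 0.469 CPM at E5.5 (115, 17 and 5 counts), and at 43.5, 29.2 and 20.5 CPM at E6.0 (331, 333 and 189 counts). Every E6.0 embryo exceeded every earlier one, and E5.5 embryo 1 lay between the stages. In culture Chac1 was 19.6, 20.8 and 14.3 CPM in FS1, 24.9, 16.04 and 31.6 CPM in FS2, 15.6, 7.38 and 7.10 CPM in AF, and 39.0, 20.1 and 8.84 CPM in AFX. All neighbours in its order of group means (E6.0, FS2, AFX, FS1, AF, E5.5, E5.0) overlapped.

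Ddit4 (chr10:59949669-59951834, minus strand) encodes REDD1, which inhibits mTORC1 under hypoxia, glucocorticoids or amino acid shortage, and it followed another course. It stood at 22.1, 6.54 and 8.04 CPM at E5.0, at 16, 3.66 and 6.75 CPM at E5.5, and at 6.30, 6.23 and 3.68 CPM at E6.0. Cultured levels were 41.5 to 97.6 CPM in FS1, 40.1 to 90.6 in FS2, 28.9 to 66.6 in AF and 40.8 to 119 in AFX. Every cultured sample lay above every epiblast.

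The synthesis enzymes shared 1 shape, with low values at E5.0 and a plateau from E5.5. Asns (chr6:7675169-7693254, minus strand), which makes asparagine, stood at 21.1, 23.4 and 27.3 CPM at E5.0, at 72.0, 47.8 and 101 CPM at E5.5, and at 95.6, 54.3 and 44.3 CPM at E6.0. Psat1 (chr19:15904678-15947337, minus strand), the aminotransferase of serine synthesis, stood at 38.0, 44.9 and 59.2 CPM, then at 151, 109 and 219 CPM, then at 202, 119.7 and 131 CPM. Phgdh (chr3:98313170-98339990, minus strand), which opens serine synthesis from glycolysis, stood at 60.1, 80.2 and 73.2 CPM, then at 119, 124 and 139 CPM, then at 135, 133 and 123 CPM. For all 3 enzymes the E5.5 and E6.0 embryos overlapped each other and lay above every E5.0 embryo. In culture Asns ranged from 71.4 to 236 CPM, Psat1 from 138 to 329 CPM and Phgdh from 107 to 172 CPM.

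The transporters differed in abundance. Slc7a5 (chr8:121881150-121907694, minus strand), the LAT1 carrier of large neutral amino acids, stood at 79.6, 85.8 and 101 CPM at E5.0, at 209.9, 143 and 161 CPM at E5.5, and at 215, 168 and 168 CPM at E6.0. In culture it was 155, 175 and 114 CPM in FS1 and 295, 297 and 249.7 CPM in FS2. AF ran from 156 to 256 CPM and AFX from 152 to 300.2 CPM. FS2 lay wholly above FS1. Slc7a11 (chr3:49892526-50443614, minus strand), the xCT cystine-glutamate exchanger, was near the limit of these libraries at E5.0, with 0.613, 0 and 2.84 CPM (5, 0 and 24 counts). It ran from 1.59 to 3.8 CPM at E5.5, from 2.38 to 9.59 CPM at E6.0 and from 2.34 to 16.6 CPM in culture.

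Between E5.0 and E5.5 the synthesis enzymes Psat1, Phgdh and Asns and the transporter Slc7a5 rose, and the stress regulators did not pass the test. Psph, which is no member and encodes the last enzyme of serine synthesis, gave -0.04 ± 0.24. Psat1 rose by a log2 fold change of 1.70 ± 0.30 (SE, n = 3 embryos a stage; adjusted p = 0.0151, edgeR's quasi-likelihood test with Benjamini-Hochberg adjustment over all genes) and Asns by 1.57 ± 0.33 (adjusted p = 0.0200). Slc7a5 rose by 0.90 ± 0.16 (adjusted p = 0.00593) and Phgdh by 0.79 ± 0.13 (adjusted p = 0.00323). So 4 of 10 members were called, all higher, where 6.82% of the 14228 genes tested were called and 3.07% were called higher. The median log2 fold change was 0.98 over the members, Chac1 included, and -0.01 over all genes tested.

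The regulators gave values without a call. Atf4 was higher by 0.58 ± 0.19 (edgeR adjusted p = 0.0895), and its E5.5 embryos all lay above its E5.0 embryos, as for 5 of the 10 members and 14.4% of all genes. Ddit3 gave -1.60 ± 0.62 (edgeR adjusted p = 0.141), with E5.5 wholly below E5.0, as for 10.1% of all genes. Chac1 gave 4.36 ± 1.5, a description since its levels at both stages served to choose the set, and the value was 2.25 without E5.5 embryo 1. Trib3 at 1.06 ± 0.72 turned to -0.37 without the same embryo. Ddit4 at -0.51 ± 0.55 turned to 0.23 without E5.0 embryo 1. Slc7a11 gave 1.11 ± 0.87, from low counts.

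The calls did not all rest equally on the embryos. Phgdh and Slc7a5 were called under every alternative run. Asns lost its call without E5.0 embryo 1, 2 or 4 or without E5.5 embryo 1 (edgeR adjusted p from 0.0611 to 0.0713), and Psat1 without E5.0 embryo 2 (0.0547), the embryo with extraembryonic ectoderm markers. Their log2 fold changes there were 1.58 for Asns and 1.69 for Psat1. Without E5.5 embryo 3, 6 members passed, with Ddit3 and Chac1 added, of which Chac1 is a description as above. Visceral endoderm markers moved against the members in this comparison: Cubn went from 364 CPM on average at E5.0 to 14.1 CPM at E5.5 (log2 fold change -4.76 ± 0.84, edgeR adjusted p = 0.0271), and Gata4 from 12.4 to 2.17 CPM. The share of counts from mitochondrial genes was 8.15% to 8.95% at E5.0 and 6.31% to 7.29% at E5.5, and that of rRNA genes, mitochondrial ones included, 6.93% to 7.66% and 5.41% to 6.15%. The part of these in the members' rise was not tested.

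Over 7 wider gene lists, 6 around the ATF4 response and 1 of the IRE1 and ATF6 arms, 16 of 73 genes were called (21.9%, 14 higher and 2 lower), where 6.82% of all genes were called and 3.07% were called higher. All 14 higher calls were in tRNA charging or in amino acid and one-carbon synthesis. Of 12 cytoplasmic tRNA synthetases and the tRNA exporter Xpot, 10 of 13 rose between E5.0 and E5.5 and none fell, with a median of 0.60. They included the cysteinyl, leucyl and seryl enzymes, Cars (1.06 ± 0.16), Lars (0.73 ± 0.11) and Sars (0.69 ± 0.18). The count was 9 without E5.0 embryo 2, 6 without E5.5 embryo 1 and 5 without E5.5 embryo 3. Mars, one of the 10, shares exonic sequence with Ddit3. Of 11 further genes of amino acid and one-carbon synthesis, 4 rose and none fell, among them Pycr1 (1.39 ± 0.38) and Aldh18a1 (1.07 ± 0.17), which make proline, and the mitochondrial folate enzyme Mthfd2 (1.08 ± 0.23). That count was 2 without E5.5 embryo 1. None of 9 further amino acid transporters passed the test, nor did any of 9 eIF2 kinases, phosphatase subunits and eIF2 or eIF2B subunits, nor any of 7 transcription factors that pair with ATF4 or are related to it. Of 8 other stress-response genes tested, Gadd45a alone was called, and it fell (-1.18 ± 0.33). Of 16 genes from the IRE1 and ATF6 arms, the branches of the unfolded protein response that do not run through ATF4, only Edem1 was called, and it fell (-0.64 ± 0.17). The median of that list was -0.28. No list was tested as a set.

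At E6.0 Atf4, Ddit3 and Chac1 stood above E5.5, and the synthesis enzymes overlapped their E5.5 level. Against E5.5, every E6.0 embryo was above every E5.5 embryo for Chac1, by which the set was chosen, and for 2 of the other 9 genes, where 16.2% of the 14228 genes were. The count of 2 of 9 is near that share, so the genes are single values. The values were Ddit3 (log2 fold change 3.66 ± 0.61), Chac1 (2.58 ± 1.00) and Atf4 (0.61 ± 0.19). Asns (-0.21 ± 0.31), Psat1 (-0.10 ± 0.29), Phgdh (0.02 ± 0.13) and Slc7a5 (0.08 ± 0.16) differed from 0 by less than 1 SE. Trib3 (0.31), Slc7a11 (1.02) and Ddit4 (-0.73) had overlapping stages. Without E5.5 embryo 1 the non-overlapping genes were 5, Chac1 included, and the value for Chac1 was 4.70 and that for Trib3 1.75. Because the genes were chosen for this stage, no test is given.

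**Figure D3:**
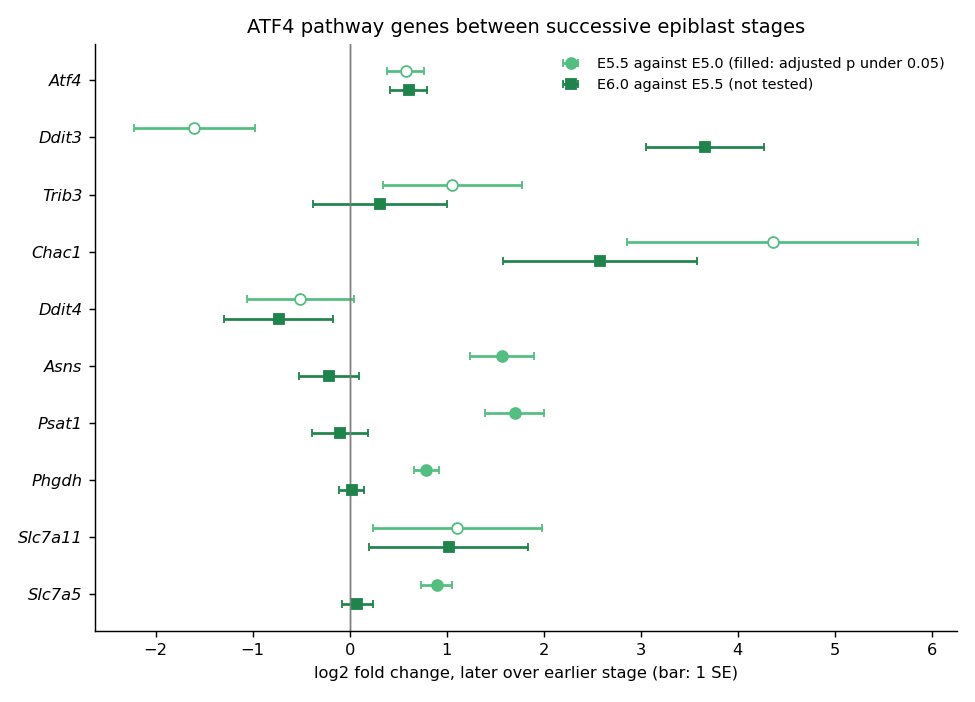
Log2 fold change (later stage over earlier, bars ±1 SE, n = 3 embryos a stage) of the 10 genes for E5.5 against E5.0 (circles, filled where the adjusted p was under 0.05) and for E6.0 against E5.5 (squares, not tested). Asns, Psat1, Phgdh and Slc7a5 are filled in the first step and near 0 in the second, and Ddit3 goes from -1.60 to 3.66. Both steps share the E5.5 embryos, with opposite sign.

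Against E5.0, every E6.0 embryo was above every E5.0 embryo for Chac1, which the choice of the set fixed, and for 7 of the other 9 genes, where 22.9% of all genes showed this, and Ddit4 was wholly below. Visceral endoderm markers stood lower: all 10 that were tested lay wholly below E5.0 at E6.0 (median -4.14), and 6 of 10 wholly below E5.5 (median -1.89). The mitochondrial share of counts was 7.03% to 7.36% at E6.0 against 8.15% to 8.95% at E5.0, and the rRNA share 6.05% to 6.30% against 6.93% to 7.66%, with no overlap in either. The part of these in the members' values was not tested. Chac1 differed most, with 853 counts over the 3 E6.0 embryos against 5 over the E5.0 embryos, a depth-corrected ratio of 133. Its log2 fold change was 6.95, and ran from 6.30 without E5.0 embryo 4 to 8.43 without E5.0 embryo 1. This is the value that chose the set. On the log2 scale Ddit3 was higher by 2.05, Psat1 by 1.60, Asns and Trib3 each by 1.37, Atf4 by 1.19, Slc7a5 by 0.98 and Phgdh by 0.81. Slc7a11 at 2.13 overlapped through E5.0 embryo 4. Ddit4 gave -1.24, and -0.49 without E5.0 embryo 1. The 2 stage comparisons of E6.0 share the E6.0 embryos, and the E5.5 and E6.0 contrasts with E5.0 share the E5.0 embryos. The steps from E5.0 to E5.5 and from E5.5 to E6.0 share the E5.5 embryos with opposite sign. A low E5.5 value, such as that of Ddit3, thus lowers the first and raises the second. All 13 genes of the tRNA synthetase list also lay wholly above E5.0 at E6.0. In the IRE1 and ATF6 list no gene did, and 5 lay wholly below, where 16.4% of all genes did.

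Among cultured cells the FS lines in A3XR were set against the E14 cells in AF and in AFX. Line and medium differ together there and cannot be told apart, whereas AF and AFX share the E14 name. By edgeR with all cultured samples no member was called in any comparison among cultures. For FS against AF, the members spanned log2 fold changes from -0.18 (Phgdh) to 1.10 (Chac1), with 9 of 10 above 0. Their median was 0.29, beside 0.02 for all genes. Above 0 were 5 of 10 for FS against AFX and 6 of 10 for AFX against AF. For FS against AF, 0 of 10 members were called by edgeR where 19.5% of the 16052 genes tested were. An unadjusted p under 0.05 was reached by 2 of them and 32.3% of all genes, and DESeq2 called 2, Trib3 and Chac1, and 23.2% of all genes. Trib3 was higher in FS by 1.07 ± 0.36 (edgeR adjusted p = 0.0565) and Chac1 by 1.10 ± 0.43 (edgeR adjusted p = 0.0961). Trib3 passed without FS1 passage 18 (1.18). Among the cultures AF has the highest sums of fibroblast and endoderm markers, whose part here was not tested.

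For FS against AFX, 0 of 10 were called by edgeR where 8.7% of genes were. Here 1 member had an unadjusted p under 0.05 (22.6% of all genes) and DESeq2 called 0 (12.3%). Atf4 was lower in FS by 0.33 ± 0.12 on the log2 scale (edgeR adjusted p = 0.118), and Trib3 was higher by 0.69 ± 0.35, which became 1.29 and passed the test without AFX passage 14. For AFX against AF, 0 of 10 were called by edgeR where 8.73% of genes were. Here 2 members had an unadjusted p under 0.05 (21.8% of all genes) and DESeq2 called 0 (12.2%). Chac1 was higher in AFX by 1.20 ± 0.48 (edgeR adjusted p = 0.160) and Atf4 by 0.40 ± 0.15 (edgeR adjusted p = 0.107). Chac1 passed without AFX passage 16 (1.58), its value was 0.53 without AFX passage 14, and Atf4 passed without AF passage 14 (0.60). These comparisons share samples, so their values for a gene are not separate observations. Markers of other cell types also differed in both comparisons, as given below with the wider lists, and their part was not tested.

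The 2 FS lines gave separate ranges for several members, with no call by edgeR over all cultured samples. In FS2 every sample lay above every FS1 sample for 5 of 10 genes, where 14% of all genes did: Ddit3 (0.92 ± 0.58), Slc7a5 (0.92 ± 0.24), Trib3 (0.66 ± 0.35), Asns (0.62 ± 0.39) and Psat1 (0.62 ± 0.20). By this measure the wider lists gave 10 of 16 genes of the IRE1 and ATF6 arms, 5 of 13 tRNA synthetase genes, 4 of 11 synthesis genes and 3 of 7 transcription factors. They also gave 2 of 9 transporters, 1 of 9 genes of the eIF2 list and 0 of 9 other stress-response genes. The separation was thus not particular to the members. By edgeR 0 of 10 members were called where 3.85% of genes were, with Slc7a5 nearest (adjusted p = 0.0542). An unadjusted p under 0.05 was reached by 2 members and 17.4% of all genes, and DESeq2 called 2, Psat1 and Slc7a5, and 6.85% of all genes. Within edgeR, 4 members and 4.33% of all genes passed with no filter on low counts, and 3 members and 7.11% with the FS lines fitted alone. Of the 74 genes of the wider lists 4 were called (5.41%), near the 3.85% of all genes, so they are single values. All were higher in FS2: the RNA-sensing eIF2 kinase gene Eif2ak2 (0.95 ± 0.16), the transcription factor gene Nfe2l1 (0.61 ± 0.11), and Xbp1 (0.82 ± 0.15) and Pdia6 (0.58 ± 0.11) of the unfolded protein response.

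**Figure D4:**
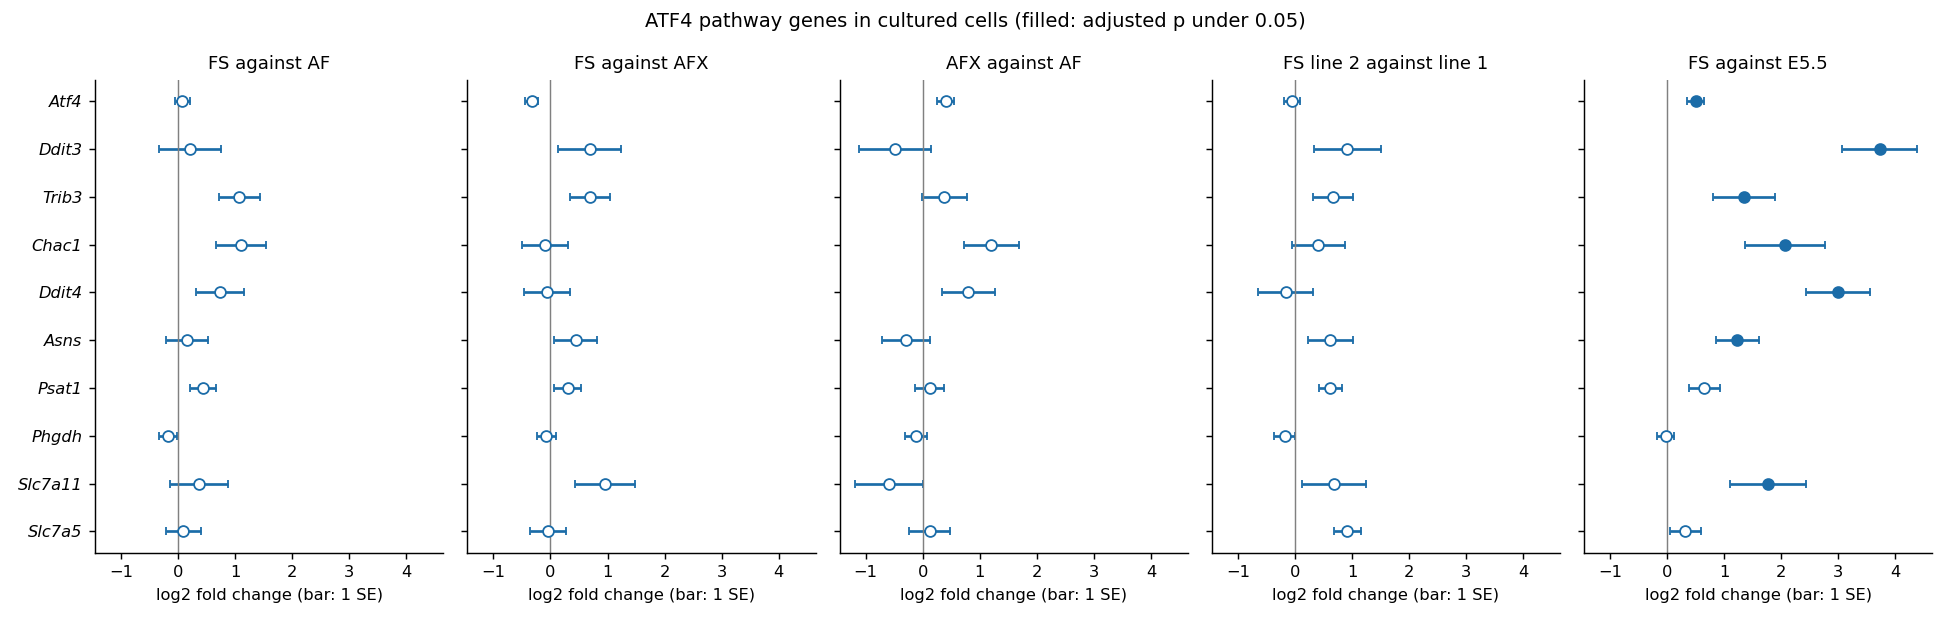
Log2 fold change (bars ±1 SE) of the 10 genes in the 4 comparisons among cultured cells and in FS against E5.5, filled where the adjusted p was under 0.05. No gene is filled in the 4 panels of cultured cells, and 7, Chac1 included, are filled against E5.5.

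Of the 74 genes of the 7 wider lists, edgeR called 8 for FS against AF (10.8%, against 19.5% of all genes), 7 for FS against AFX (9.46%, against 8.7%) and 3 for AFX against AF (4.05%, against 8.73%). Those shares are near or below the shares of all genes, so the genes below are single values. Slc1a5, the glutamine carrier ASCT2, was higher in FS by 1.79 ± 0.23 against AF and by 1.26 ± 0.22 against AFX. Eif2ak2 was higher by 1.20 ± 0.27 and 1.28 ± 0.27, and Eif2ak4 (GCN2, the kinase that senses uncharged tRNA) by 0.58 ± 0.14 against AFX. In AFX the threonyl enzyme Tars was higher than in AF by 0.93 ± 0.16 and the neutral amino acid carrier Slc38a2 by 0.70 ± 0.16, and both were lower in FS than in AFX, with -0.59 ± 0.13 and -0.69 ± 0.14. Sesn2, a leucine sensor, was lower in AF than in FS (FS over AF 0.66 ± 0.12) and than in AFX (AFX over AF 0.73 ± 0.14). Slc1a4 was higher in FS than in AF (0.63 ± 0.21), and the cationic amino acid exchanger gene Slc7a6 (-0.39 ± 0.11) and the chaperone gene Pdia4 (-0.42 ± 0.13) were lower. Dnajc3, an inhibitor of eIF2 kinases, was higher in FS than in AFX (0.67 ± 0.17). Summed fibroblast and visceral endoderm markers move with each AF contrast (221 to 261 and 62.5 to 97.1 CPM in AF). Of 8 fibroblast markers tested, 7 were called lower in FS than in AF. In AFX 5 were called lower than in AF and 1, Thy1, higher (2.29 ± 0.55). For FS against AFX, 3 of 8 fibroblast and 1 of 5 visceral endoderm markers were called lower in FS. The part of these markers was not tested. Each log2 fold change given above passed the edgeR threshold of 0.05 over all genes. Of the 13 tRNA synthetase genes, 0 were called for FS against AF, 1 for FS against AFX and 1 for AFX against AF.

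Formative stem cells are named for the formative epiblast, and against E5.5 they held more mRNA of 6 of the 9 members other than Chac1. Ddit3 was higher by a log2 fold change of 3.72 ± 0.65 (edgeR adjusted p = 9.4e-05, n = 6 cultures, passages of 2 lines, and 3 embryos) and Ddit4 by 3.0 ± 0.56 (edgeR adjusted p = 0.000451). Slc7a11 was higher by 1.77 ± 0.67, Trib3 by 1.35 ± 0.54, Asns by 1.23 ± 0.38 and Atf4 by 0.50 ± 0.15, with edgeR adjusted p between 0.00988 for Atf4 and 0.0495 for Trib3. Psat1 (0.65 ± 0.27), Slc7a5 (0.32 ± 0.28) and Phgdh (-0.03 ± 0.15) did not pass. This count of 6 of 9 stands against 43.8% of the 16614 genes called and 23% called higher in FS. Chac1 gave 2.06 ± 0.70, a description, since its low E5.5 level was part of what chose the set. Where counts over all 10 members are given for this comparison, Chac1 is among them.

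Only Ddit3 and Ddit4 were called under every alternative. Without E5.5 embryo 2 they were the only 2 members called, and without embryo 3 the count was 4. When libraries were left out 1 at a time, Trib3 no longer passed in 7 of 9 fits, with values from 0.87 without E5.5 embryo 2 to 2.76 without embryo 1, and Chac1 gave 4.18 without embryo 1. With the FS1 line alone 3 members were called (Atf4, Ddit3 and Ddit4). Scaling by total counts moved the median of all genes from 0.08 to 0.33, and Phgdh then gave 0.22. Cultured cells and dissected epiblasts also differ in how they were collected, which cannot be told apart from the cell state. Visceral endoderm markers were lower in FS, with Cubn at 0.0309 CPM against 14.1 CPM at E5.5. The rRNA share was 3.79% to 4.70% in FS against 5.41% to 6.15%, and the mitochondrial share 4.26% to 5.28% against 6.31% to 7.29%. Their part was not tested.

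Over the 7 wider lists 38 of 74 genes were called in this comparison (51.4%, 25 higher and 13 lower), near the 43.8% of all genes, so the genes below are single values. All medians stand beside 0.08 for all genes. Of 9 other stress-response genes, 5 were higher in FS and 1 lower (median 1.49), including the lipoprotein receptor gene Vldlr (3.08 ± 0.49), Tsc22d3 (2.25 ± 0.33) and Stc2 (2.03 ± 0.37). Of 7 partner and related transcription factors, 5 were higher and 1 lower (median 0.91), including Atf5 (1.99 ± 0.34), Cebpg (0.91 ± 0.22) and Nfe2l1 (0.61 ± 0.16). Amino acid transporters had 4 higher and 1 lower of 9 (median 0.47), with Slc1a4 at 2.30 ± 0.54, the arginine carrier Slc7a1 at 1.54 ± 0.33 and Slc38a2 at -0.59 ± 0.13, and 3 were called without FS2 passage 12 or E5.5 embryo 2. Amino acid and one-carbon synthesis had 4 higher and 2 lower of 11 (median 0.58), with the mitochondrial folate enzyme Aldh1l2 at 3.54 ± 0.75, Psph at 1.14 ± 0.26, and Cbs at -1.08 ± 0.27. The eIF2 list had 2 higher, Eif2ak2 (2.93 ± 0.37) and Eif2ak4 (0.94 ± 0.19), and 4 lower, including Ppp1r15a, which directs eIF2 dephosphorylation (-1.14 ± 0.18). Only 2 of 13 tRNA synthetase genes were higher, Cars (0.58 ± 0.16) and Lars (0.55 ± 0.14), and 6 were under scaling by total counts, 1 without E5.5 embryo 2 and 4 without E5.5 embryo 3. The IRE1 and ATF6 arms had 3 higher and 4 lower of 16, with Dnajc3 at 1.09 ± 0.19, Xbp1 at 0.61 ± 0.25 and Dnajb9 at -1.39 ± 0.23. The 7 calls of that list were 4 without FS2 passage 13 or 16 and 3 without E5.5 embryo 3.

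**Figure D5:**
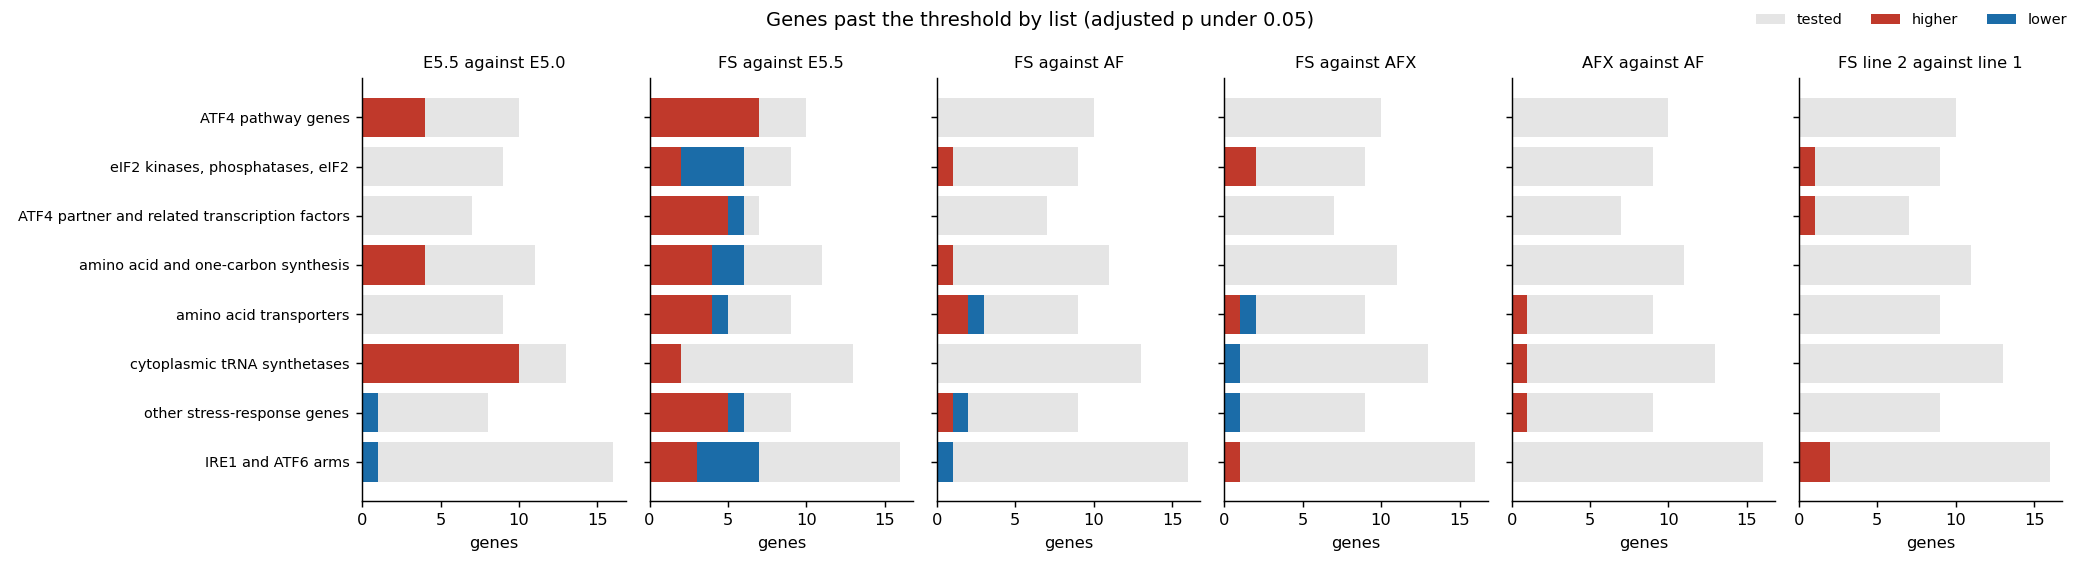
Number of genes past the threshold (adjusted p under 0.05), higher in red and lower in blue, over the number tested in grey, for the 10 ATF4 pathway genes and 7 wider lists in 6 comparisons. From E5.0 to E5.5, 10 of 13 tRNA synthetase genes are higher, where 3.07% of all genes are. In FS against E5.5, where 23% of all genes are higher, so are 5 of 7 partner transcription factors, whereas the eIF2 list has 2 higher and 4 lower and the IRE1 and ATF6 list 3 higher and 4 lower.

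In 4 of the 7 groups 1 library was the lowest of its group for at least 9 members. FS1 passage 18 was the lowest FS1 sample for 10 of 10 genes, AF passage 16 the lowest AF sample for 9 and AFX passage 16 the lowest AFX sample for 9. AFX passage 14 was the highest of its group for 9, E6.0 embryo 1 for 8 and E5.5 embryo 1 for 6. E6.0 embryo 3 was the lowest E6.0 embryo for 9. The other groups were mixed: the lowest sample was FS2 passage 12, 13 or 16 for 1, 3 and 6 genes, E5.0 embryo 1, 2 or 4 for 6, 2 and 2, and E5.5 embryo 1, 2 or 3 for 2, 5 and 3. These counts describe single libraries, the same counts over all genes were not made, and the genes of a library share its RNA and depth.

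The genes whose levels ran most like Chac1 were looked up over the epiblasts and over the cultures. Over the 9 epiblasts, among 8025 genes outside the 10 members with a mean of at least 10 CPM, the closest by Pearson's r of log2 CPM were Nbea (0.98), Igf1r (0.97) and Mbtd1 (0.97). Nbea, a neuronal trafficking protein gene, stood at 22.8 to 27.4 CPM at E5.0, 36.0 to 57.7 at E5.5 and 60.4 to 85.9 at E6.0. Over the 12 cultured samples, among 8892 such genes, the closest were the members of wider lists Cars (0.95) and Herpud1 (0.90), together with Auh (0.90), a mitochondrial leucine-breakdown enzyme. Among the members, the r with Chac1 was 0.98 over the epiblasts and 0.54 over the cultures for Atf4, and 0.75 and 0.80 for Trib3. The other members ran from -0.24 (Ddit4) to 0.81 (Slc7a5) over the epiblasts and from 0.16 (Phgdh) to 0.71 (Psat1) over the cultures. No difference between the settings was tested. The points share stage or medium and library, and the low Chac1 counts at E5.0 carry much counting error, so these values are descriptions.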

How the data were processed

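RNA of cultured cells and single epiblasts was prepared with a PicoPure kit, per the labels' protocols. The deposited table holds raw read counts per gene for all 21 samples. Per the submitters' processing notes, the authors used Trim Galore, TopHat2 2.1.0, featureCounts 1.5.0 and mm10, and the roles, strand setting and annotation are not given in the sources used here. Deposited counts were tested with edgeR 4.0.16 in R 4.3.3 (TMM, filterByExpr, robust quasi-likelihood test, 2-sided, Benjamini-Hochberg over all genes tested, threshold 0.05), over the 12 cultured samples, the 9 epiblasts, or all 21 for FS against E5.5. FS lines were pooled except against each other. DESeq2 1.42.0, other scalings, no filter and left-out libraries were alternatives. The steps were tested on simulated counts. Gene positions and exon lengths are from GENCODE M21 (GRCm38, the same assembly), and promoters from RefSeq. Members and lists were chosen with earlier results of these data known. List genes were named if called, with a mean of at least 10 CPM and among the 3 largest changes of their list. Counts of list genes under the alternatives were added after the data were seen. Replicate pairs differed by more than sampling noise (chi-square per degree of freedom from 4.84 to 29.0), so none was merged. Values after ± are standard errors of the edgeR fits, and the floor of 3 counts covers counting error only.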

Additional observations from a re-analysis of the deposited data

How the results depend on the processing

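The counts of members called moved as follows. For FS against AF (0), the count was 1 with total counts or with the FS lines as separate groups, 2 with DESeq2, the 2 groups alone or FS line 2 alone, and 0 to 1 when each library was left out. For FS against AFX (0) it was 1 with the 2 groups alone and 0 to 1 leaving out a library, and for AFX against AF (0) it was 0 to 1. For FS line 2 against line 1 (0) it was 2 with DESeq2, 4 with no filter and 3 with the 2 groups alone. For E5.5 against E5.0 (4) it was 2 with the replicate block and 2 to 6 leaving out an embryo. For FS against E5.5 (7) it was 4 with no filter, 3 with FS line 1 alone and 2 to 8 leaving out a library. Members wholly above E5.5 at E6.0 (3) were 3 to 5 leaving out an embryo. All genes called moved to 820 to 1485 for FS against AFX and to 732 to 1129 for AFX against AF when a library was left out. For FS line 2 against line 1 (618) they were 1099 with DESeq2, 1298 with no filter, 1045 with the 2 groups alone and 316 to 478 leaving out a library. For E5.5 against E5.0 (971) they were 1590, 1659 and 453 under the same 3 settings and 371 to 1260 leaving out an embryo. Tested fold changes given singly that changed sign were Ddit4 from E5.0 to E5.5 (-1.27 to 0.23 leaving out an embryo), Trib3 there (-0.37 to 1.52), Phgdh for FS against E5.5 (0.22 with total counts, 0.05 with FS line 1 alone, -0.09 to 0.03 leaving out a library) and Slc7a5 there (-0.22 with FS line 1 alone). Between E5.5 and E6.0, 6 untested values changed sign when an embryo was left out. They were Asns (up to 0.09), Psat1 (up to 0.19), Phgdh (down to -0.01), Slc7a5 (down to -0.05), Trib3 (0.31, down to -0.14) and Ddit4 (-0.73, up to 0.04 without E5.5 embryo 1). Of 29 other fold changes, given by range only, 18 changed sign under some alternative. The cause was not tested, except that fewer samples enter a fit that leaves out libraries. Depth limits the low members: 3 counts were worth 0.171 to 0.561 CPM over the 21 libraries.

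Replicate numbers did not pair the samples: deviations of same-numbered AFX and AF passages correlated at -0.137, -0.104 and 0.223, and those of E5.5 and E5.0 embryos at -0.085 and 0.053. With the replicate block, 907 genes and 0 members were called for AFX against AF, and 421 genes and 2 members, Phgdh and Slc7a5, for E5.5 against E5.0. In that comparison the block gave 6 tRNA synthetase calls in place of 10, and 2 calls of further synthesis genes in place of 4. No paired analysis was possible for the FS comparisons because the groups share fewer than 2 numbers.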
